A study of Mus musculus with 3 samples.

Results

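The 32 genes described here make the proteins that copy DNA and prepare cells for S phase: the replicative helicase, the factors that load and start it, polymerases, the sliding clamp and its loader, enzymes of nucleotide supply, E2F transcription factors and chromatin assembly factors. They were chosen by symbol, and all 32 of 32 were found among 33700 genes of each table and passed a minimum mean of 1 RPKM, as 14790 gene symbols did. RPKM is a read number scaled to gene length and library total, so a shift of all transcripts together would not show. RNA was taken from spleen B cells lacking CD43, of the C57BL/6 mouse strain. In all 3 cultures the cells were stimulated for 3 days with LPS, a bacterial activator of Toll-like receptors, and IL4, a T cell cytokine. Added to them for those 3 days was JQ1+ at 80 nM, flavopiridol at 30 nM, or DMSO, the solvent control. These groups follow the treatment label, which the sample titles share, while the culture label names DMSO for all 3 samples. JQ1 blocks the acetyl-lysine pockets of BET bromodomain proteins, and flavopiridol inhibits cyclin-dependent kinases, among them Cdk9 of transcription elongation. Each treatment had 1 library, so the differences below could not be checked in replicates and no test was made. Whether the cultures shared mice, and the age of the mice, is not stated in the labels.

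Before S phase, origins are licensed: the origin recognition complex, Cdc6 and Cdt1 load a double ring of Mcm2 to Mcm7. At firing, Cdc45 and the GINS complex join that ring to form the active helicase, and primase and the polymerases follow it. Most of these genes are transcribed from late G1 under E2F factors, which the retinoblastoma protein holds back in resting cells. Resting B cells express little of this set, and stimulation with LPS and IL4 brings them into division.

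The defining B cell markers were present in every library: the 8 genes tested, led by Cd79b, summed to 4995 RPKM with JQ1+, 4084 RPKM with flavopiridol and 4127 RPKM with DMSO, and at 1.5-fold 3 of the 8 rose and 2 fell with JQ1+. Markers of T cells summed to between 4.0 and 4.31 RPKM, with Cd3e at 0 in the JQ1+ and flavopiridol libraries. Myeloid markers summed to between 7.48 and 14.0 RPKM, NK and cytotoxic markers to between 1.63 and 2.91 RPKM and erythroid markers to between 2.05 and 2.63 RPKM, and Ly6g, S100a8 and S100a9 were at 0 in every library. The 6 dendritic cell markers differed in sum between treatments, at 10.7 RPKM in JQ1+, 35.1 RPKM in flavopiridol and 90 RPKM in DMSO. Batf3 alone made 55.9 RPKM of the DMSO sum. Of the 4 that passed the minimum level, 4 lay below DMSO with JQ1+. With flavopiridol 2 lay below and 2 above. The part of these markers in the results was not tested. Deposited counts summed to 51247080 in JQ1+, 50184508 in flavopiridol and 59786847 in DMSO, of which the 32 genes took 0.421%, 0.508% and 0.456% in that order. In bulk RNA, fewer cells in S phase and less transcript per cell cannot be told apart.

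Promoter sequences of the set were compared with those of other genes. The table of RefSeq promoters (GRCm38.p6) held 28 of the 32 genes, each window reaching from 250 bases before the annotated start to 50 after it. These windows were searched on both strands for the E2F element, spelled TTTCCCGC, TTTCGCGC, TTTGCCGC or TTTGGCGC. A match was found for 13 of 28 genes, or 46.4%, against 2.6% of the 27025 symbols with a promoter (704 symbols). Among 75 other replication genes with a window the share was 26.7%. The CCAAT box, searched the same way, was found for 64.3% of the 28 genes, 49.3% of the 75 and 41.1% of all symbols. A match is a run of letters and not a bound site, and binding was not measured.

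**Figure D1:**
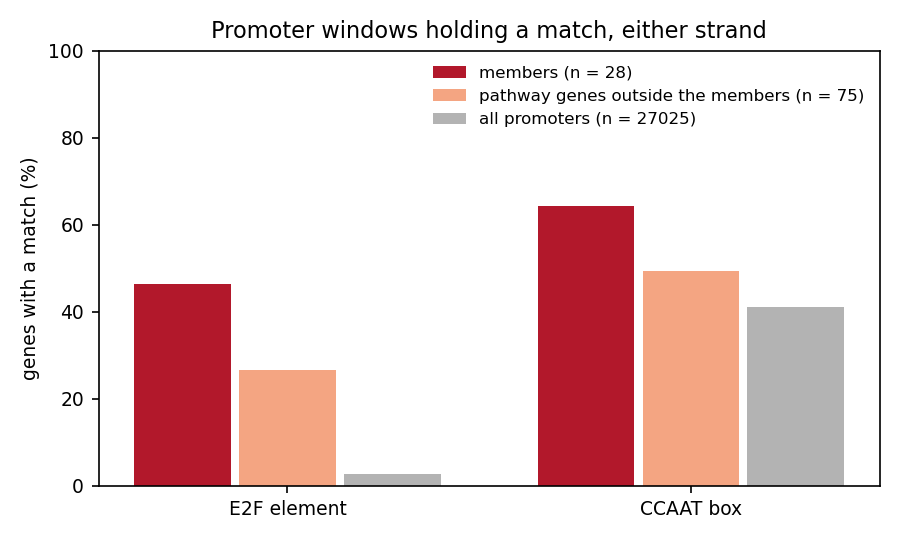
Share of genes (percent, vertical axis) whose promoter window held an E2F element or a CCAAT box on either strand, for the 28 members with a window, 75 other replication genes and all 27025 symbols. The E2F bars stand at 46.4%, 26.7% and 2.6%, further apart than the CCAAT bars at 64.3%, 49.3% and 41.1%.

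Windows of 6 genes are printed, 5′ to 3′ on the strand of the gene, with each E2F element in capitals. Mcm6 and Mcm3 are shown because they had the lowest JQ1+ ratios of the helicase genes, E2f2 and Tyms because they were the members past 1.5-fold with JQ1+, and Cdc6 and Pola1 as a licensing gene and a polymerase gene within 1.5-fold of DMSO. For Mcm6, Cdc6, Pola1 and Tyms the 150 bases before the start are given. For Mcm3 and E2f2 the matches lay after the start, and 30 and 25 bases around them are given. The E2f2 stretch lies in no exon of the GENCODE M21 annotation, so the 2 annotations differ at this start.
Mcm6 (chr1:128359706-128359855, minus strand): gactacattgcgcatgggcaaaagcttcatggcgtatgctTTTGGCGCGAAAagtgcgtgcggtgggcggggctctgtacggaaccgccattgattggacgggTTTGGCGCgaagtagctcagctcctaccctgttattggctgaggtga
Mcm3 (chr1:20820266-20820295, minus strand): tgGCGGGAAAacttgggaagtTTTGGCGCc
E2f2 (chr4:136172299-136172323, plus strand): ttggcggcatatagTTTGGCGCtaa
Cdc6 (chr11:98908001-98908150, plus strand): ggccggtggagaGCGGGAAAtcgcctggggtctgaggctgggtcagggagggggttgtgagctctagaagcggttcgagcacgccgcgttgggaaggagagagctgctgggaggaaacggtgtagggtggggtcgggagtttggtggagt
Pola1 (chrX:93632156-93632305, minus strand): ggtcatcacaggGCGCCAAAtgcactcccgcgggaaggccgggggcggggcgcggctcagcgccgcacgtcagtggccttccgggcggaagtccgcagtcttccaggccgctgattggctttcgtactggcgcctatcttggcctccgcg
Tyms (chr5:30073626-30073775, minus strand): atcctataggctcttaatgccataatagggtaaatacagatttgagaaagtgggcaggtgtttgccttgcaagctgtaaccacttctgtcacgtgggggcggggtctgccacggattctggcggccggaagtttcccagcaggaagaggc
Mcm6 held 3 matches, at 110, 106 and 47 bases before the start, of which the first pair share 4 bases, one on each strand. Several matches were also found for Mcm3, Mcm5, Mcm7 and Rfc3. Mcm3, Mcm5, Mcm6 and Mcm7 were thus among the 13 genes with a match, Mcm2 had none in its window, and Mcm4 was not in the table. The Tyms window held none. The 13 genes with a match had a median log2 change of -0.17 with JQ1+ and 0.20 with flavopiridol, against DMSO, and the 15 without one -0.06 and 0.10. With JQ1+ the changes ran from -0.47 to 0.71 with a match and from -0.74 to 0.28 without one, so the ranges overlapped in part.

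Most of the 32 genes were expressed above the median protein-coding gene in every library. Their median level was 66.6 RPKM with JQ1+, 70.9 RPKM with flavopiridol and 59.7 RPKM with DMSO, where the median of 11325 protein-coding genes was 20.5, 24.3 and 22.6 RPKM. Mcm3 had the highest level of the set in each library, at 278 RPKM in JQ1+, 457 RPKM in flavopiridol and 385 RPKM in DMSO. It stood above 96.3%, 97.5% and 97.3% of protein-coding genes in these libraries. At the low end were Gins3 with 16.7, 24 and 17.9 RPKM and E2f8 with 20.6, 19.9 and 21.5 RPKM, in the same order of treatments. Gins3 lay below the protein-coding median in all 3 libraries, and E2f8 and E2f1 did in flavopiridol and DMSO. The spread from lowest to highest member was 16.6-fold in JQ1+, 23.0-fold in flavopiridol and 21.6-fold in DMSO, wider than any ratio between treatments in the set.

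**Figure D2:**
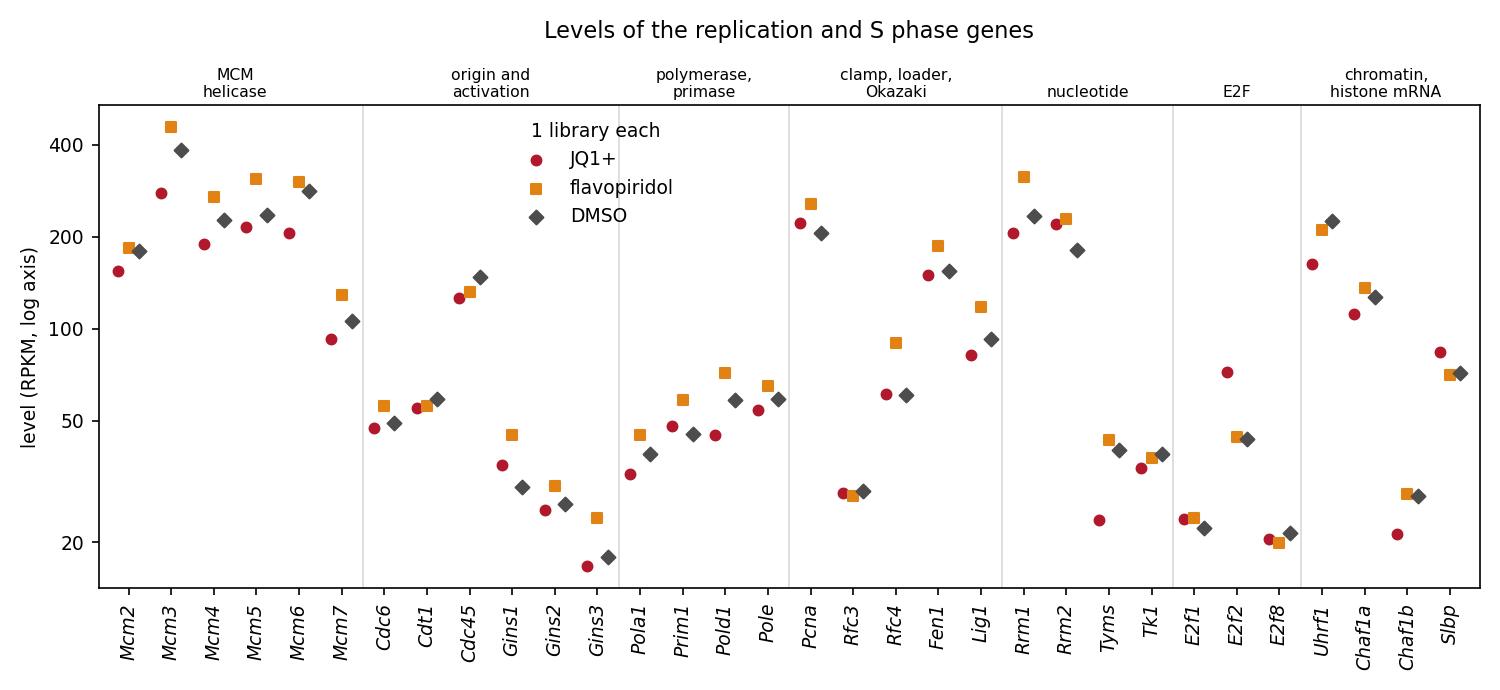
Level of each of the 32 genes in RPKM (log axis), grouped by role, with 1 point per library for JQ1+ (circles), flavopiridol (squares) and DMSO (diamonds). Mcm3 is the highest gene in all 3 libraries, and the widest gaps between libraries of 1 gene are those of Tyms and E2f2, where the JQ1+ point stands apart from the other 2.

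Changes below are log2((RPKM + 1)/(RPKM + 1)), which understates low genes, and the words rose and fell are kept for changes of at least 1.5-fold on that scale. Ratios are of RPKM with no pseudocount, and their 95% intervals hold counting error alone. No member reached 2-fold in any of the 3 comparisons, where in JQ1+ against DMSO 1.98% of all genes rose and 5.29% fell at least 2-fold, and in flavopiridol against DMSO 3.55% rose and 2.88% fell. At 1.5-fold, 1 member rose and 1 fell with JQ1+, against 6.1% and 12.7% of all genes. With flavopiridol 0 of 32 rose and 0 fell, against 12.3% and 7.56% of all genes. Both sets of values use the same DMSO library.

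The median member changed by -0.13 with JQ1+ and by 0.18 with flavopiridol, while the median of all genes was -0.08 and 0.13. Relative to all genes the set therefore lay at -0.04 and 0.05. With JQ1+ the middle of the set ran from -0.22 to -0.02 between its quartiles, against -0.33 to 0.15 for all genes. With flavopiridol it ran from 0.02 to 0.31, against -0.13 to 0.38. Scaling to the median of ratios shifted all genes, at their median, by 0.08 in the first comparison and by -0.13 in the second, so signs of small changes depend on the scaling. Over the deposited scale and 3 other scalings, 19 members were lower and 8 higher with JQ1+ in every one, and 18 were higher and 7 lower with flavopiridol. The same count over all genes is not given here. As deposited, 24 of 32 members were below 0 with JQ1+ and 25 above 0 with flavopiridol, on the side where most genes lay, 8837 and 9427 of 14790.

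**Figure D3:**
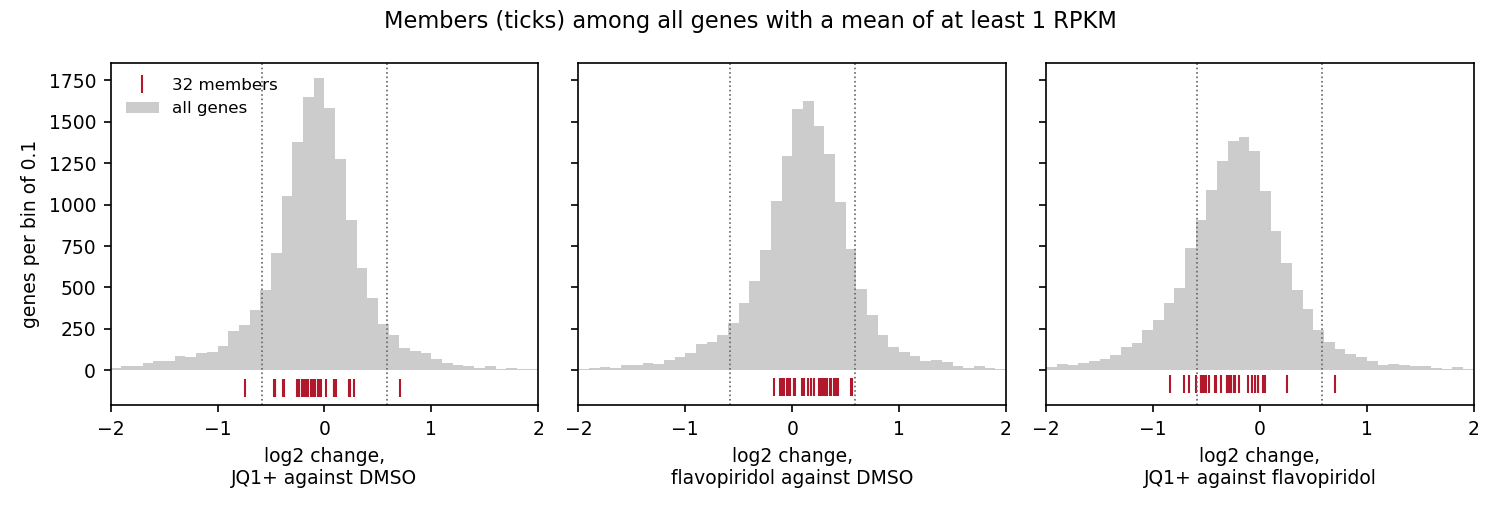
Histograms of the log2 change of all 14790 genes in bins of 0.1 (grey, genes per bin; changes beyond 2 in size are not drawn), with the 32 members as ticks, for JQ1+ against DMSO, flavopiridol against DMSO and JQ1+ against flavopiridol. Dotted lines mark 1.5-fold; the ticks lie in the centre of each histogram, with Tyms at -0.74 and E2f2 at 0.71 the outermost in the first panel.

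The genes of the Mcm2 to Mcm7 ring, which unwinds DNA at the fork, stood together on the low side with JQ1+. Their summed level was 1134 RPKM with JQ1+, 1651 RPKM with flavopiridol and 1415 RPKM with DMSO. All 6 were below DMSO with JQ1+ on each of the 4 scalings and below the median of all genes, but none by 1.5-fold. As deposited, 8837 of 14790 genes were also below DMSO. The 4 scalings are not separate evidence, because they shift every gene of a library by about one factor. Mcm3 had a ratio of 0.722 (interval 0.698 to 0.747), and Mcm6 was at 205 RPKM in JQ1+, 302 RPKM in flavopiridol and 283 RPKM in DMSO, a JQ1+ ratio of 0.725 (interval 0.702 to 0.749). These counting intervals lay below that of Mcm5, whose level was 215 RPKM in JQ1+, 309.7 RPKM in flavopiridol and 236 RPKM in DMSO, a JQ1+ ratio of 0.911 (interval 0.878 to 0.946). The subunits of this ring, which are present once each in it, did not share one ratio within counting error. Mcm2 was at 155 RPKM in JQ1+, 183 RPKM in flavopiridol and 180.1 RPKM in DMSO. Mcm4 was at 189 RPKM in JQ1+, 270.4 RPKM in flavopiridol and 226 RPKM in DMSO. Mcm7, the lowest of the 6 in each library, was at 92.7 RPKM in JQ1+, 129 RPKM in flavopiridol and 106 RPKM in DMSO. With flavopiridol the 6 had changes from 0.02 to 0.39 as deposited, all above 0, where 9427 of 14790 genes lay. Mcm2 and Mcm6 turned below 0 on other scalings. Mcm5 had the highest of these ratios, 1.31 (interval 1.27 to 1.36).

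**Figure D4:**
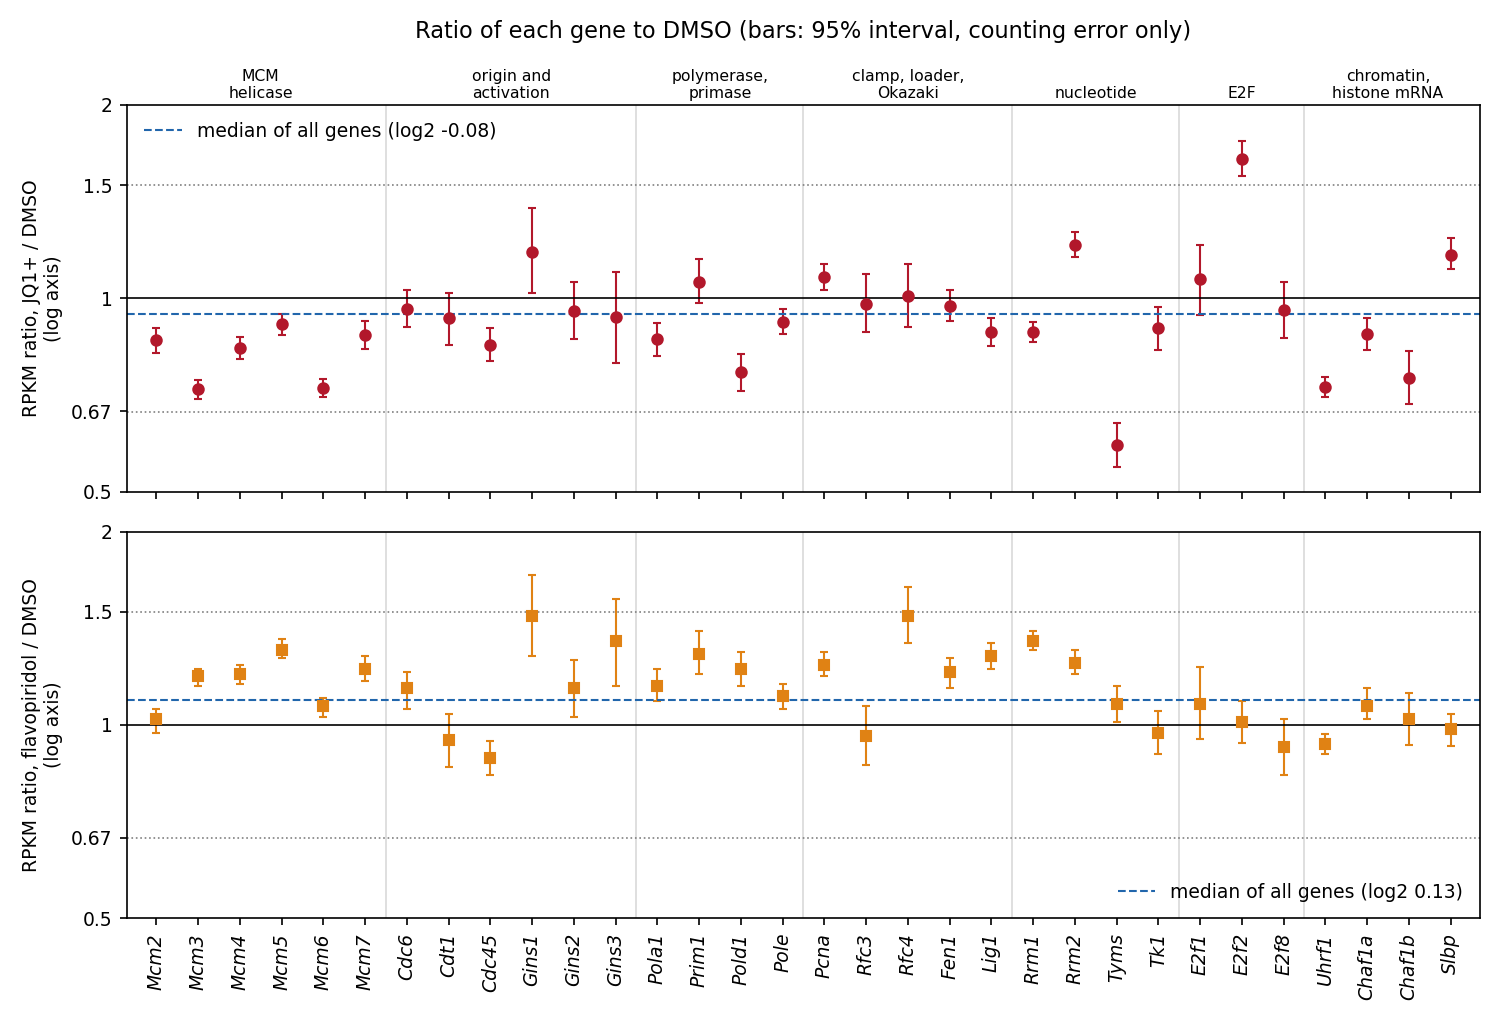
Ratio of each gene's RPKM to DMSO (log axis) with JQ1+ (upper panel) and flavopiridol (lower panel), with bars for the 95% interval of counting error. The dashed line is the median change of all genes and the dotted lines are 1.5-fold; the 6 helicase genes lie below the dashed line in the upper panel, Tyms lies below and E2f2 above the dotted lines there, and no gene passes them in the lower panel.

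Of the genes that load and activate the helicase, 0 of 6 passed 1.5-fold with either drug, at changes of -0.24 to 0.24 with JQ1+ and -0.17 to 0.55 with flavopiridol. Cdc6, the ATPase that recruits the ring, was at 47.5 RPKM in JQ1+, 55.9 RPKM in flavopiridol and 49.2 RPKM in DMSO. Cdt1, its partner in loading, was at 54.9 RPKM in JQ1+, 55.9 RPKM in flavopiridol and 59.0 RPKM in DMSO. Cdc45, which joins the ring at firing, was lower than DMSO with both drugs, at 126 RPKM in JQ1+, 132 RPKM in flavopiridol and 148 RPKM in DMSO. Its ratios were 0.847 (interval 0.798 to 0.900) with JQ1+ and 0.889 (interval 0.836 to 0.945) with flavopiridol.

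The 3 GINS subunits in the set, which bind Cdc45 and the ring in a complex of equal parts, lay above DMSO with flavopiridol. Each had a counting interval above 1, as had 38.4% of all genes. Gins1 was at 35.9 RPKM in JQ1+, 44.9 RPKM in flavopiridol and 30.3 RPKM in DMSO. Its flavopiridol ratio of 1.48 (interval 1.28 to 1.71) and its log2 change of 0.55 came just short of 1.5-fold. Gins3 was at 16.7 RPKM in JQ1+, 24 RPKM in flavopiridol and 17.9 RPKM in DMSO, a flavopiridol ratio of 1.35 (interval 1.15 to 1.57). Gins2 was at 25.6 RPKM in JQ1+, 30.5 RPKM in flavopiridol and 26.8 RPKM in DMSO, a flavopiridol ratio of 1.14 (interval 1.03 to 1.26). Gins4, the remaining subunit, is no member and was named after its values were seen; it was at 92.9 RPKM in JQ1+, 96.3 RPKM in flavopiridol and 78.2 RPKM in DMSO, a flavopiridol ratio of 1.23 (interval 1.11 to 1.36). In the GENCODE M21 annotation 67.3% of the exon bases of Gins2 overlap Gse1 on the other strand, and the use of strand in counting is not given, so the Gins2 level may hold reads of Gse1, which was at 14.0, 9.93 and 9.1 RPKM in the same order.

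The polymerase and primase genes moved within narrow bounds, with 0 of 4 past 1.5-fold against DMSO. Pold1, the catalytic subunit of the lagging-strand polymerase delta, was at 44.9 RPKM in JQ1+, 71.4 RPKM in flavopiridol and 58.6 RPKM in DMSO. Its ratio to DMSO was 0.767 (interval 0.717 to 0.820) with JQ1+ and 1.22 (interval 1.15 to 1.30) with flavopiridol. Pole, the catalytic subunit of the leading-strand polymerase epsilon, was at 54.1 RPKM in JQ1+, 65.2 RPKM in flavopiridol and 58.8 RPKM in DMSO. Pola1 and Prim1 are the members from the complex that starts new strands. Pola1, of polymerase alpha, was at 33.5 RPKM in JQ1+, 44.9 RPKM in flavopiridol and 38.8 RPKM in DMSO. Prim1, the primase that lays the RNA primer, was at 48.2 RPKM in JQ1+, 58.6 RPKM in flavopiridol and 45.3 RPKM in DMSO. All 4 were above DMSO with flavopiridol on each of the 4 scalings, at changes of 0.15 to 0.36 as deposited. Of all genes, 9427 of 14790 were above DMSO as deposited.

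Among the clamp, clamp loader and Okazaki fragment genes, 0 of 5 passed 1.5-fold with either drug. Pcna, the sliding clamp, was at 222 RPKM in JQ1+, 256 RPKM in flavopiridol and 206 RPKM in DMSO. A near copy, Pcna-ps2, took 8721 counts in JQ1+, 8734 in flavopiridol and 9523 in DMSO, which is 87.0%, 83.0% and 91.5% of the counts of Pcna itself, so the split of reads between them is uncertain. Rfc4, a subunit of the loader that opens the clamp, was the highest ratio of the set with flavopiridol on the log2 scale. It was at 61.0 RPKM in JQ1+, 89.6 RPKM in flavopiridol and 60.5 RPKM in DMSO, a flavopiridol ratio of 1.48 (interval 1.34 to 1.64), while its loader partner Rfc3 was at 29.0 RPKM, 28.4 RPKM and 29.5 RPKM, with a flavopiridol ratio of 0.963 (interval 0.865 to 1.07). In M21, 12.7% of the exon bases of Rfc4 overlap Eif4a2 on the other strand, which was at 199 RPKM in JQ1+, 276 RPKM in flavopiridol and 193 RPKM in DMSO. Eif4a2 reads in the Rfc4 count were not tested.

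Fen1 and Lig1 trim and seal Okazaki fragments. Fen1 was at 150.4 RPKM in JQ1+, 186 RPKM in flavopiridol and 155 RPKM in DMSO, but 78.8% of its M21 exon bases overlap the antisense gene Gm10143, so this level is uncertain. Lig1 was at 81.8 RPKM in JQ1+, 118 RPKM in flavopiridol and 92.3 RPKM in DMSO, with a flavopiridol ratio of 1.28 (interval 1.22 to 1.34). Both lay above DMSO with flavopiridol as deposited, as did 9427 of 14790 genes, and for Fen1 the overlap limits this. Gm10143 was at 102 RPKM in JQ1+, 127 RPKM in flavopiridol and 105 RPKM in DMSO.

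Nucleotide supply held the one member that fell. Tyms, which makes thymidylate from deoxyuridylate, was at 23.7 RPKM in JQ1+, 43.2 RPKM in flavopiridol and 40.1 RPKM in DMSO. It fell with JQ1+ by a log2 change of -0.74, 1.69-fold lower than DMSO, with a ratio of 0.591 (interval 0.546 to 0.639), and its change lay between -0.76 and -0.65 over the 5 other settings of pseudocount and scaling. The flavopiridol library was near DMSO for this gene, with a ratio of 1.08 (interval 1.01 to 1.15). No exon of Tyms overlaps another gene in M21. Tk1, the salvage kinase for thymidine, was at 35 RPKM in JQ1+, 37.9 RPKM in flavopiridol and 38.9 RPKM in DMSO, a JQ1+ ratio of 0.899 (interval 0.832 to 0.970) that lay above the interval of Tyms.

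The subunits of ribonucleotide reductase, which turns ribonucleotides into deoxyribonucleotides, also differed from each other. Rrm1, the large subunit, was at 206 RPKM in JQ1+, 314 RPKM in flavopiridol and 233 RPKM in DMSO. Rrm2, the small subunit made in S phase, was at 220.1 RPKM in JQ1+, 228 RPKM in flavopiridol and 181 RPKM in DMSO. With JQ1+ the ratio was 0.887 (interval 0.856 to 0.920) for Rrm1 and 1.21 (interval 1.16 to 1.27) for Rrm2, on opposite sides of DMSO on each of the 4 scalings. With flavopiridol both were above DMSO, at 1.35 (interval 1.31 to 1.40) and 1.25 (interval 1.20 to 1.31).

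The E2F factors held the one member that rose. E2f2, an activating E2F, was at 72.2 RPKM in JQ1+, 44.2 RPKM in flavopiridol and 43.7 RPKM in DMSO. It rose with JQ1+ by a log2 change of 0.71, a ratio of 1.65 (interval 1.55 to 1.76), and its change lay between 0.66 and 0.80 over the other 5 settings. With flavopiridol the ratio was 1.01 (interval 0.939 to 1.09). Its counts were 6645 in JQ1+, 3705 in flavopiridol and 4493 in DMSO, and no exon overlap with another gene was found. E2f1, the other activator in the set, was at 23.8 RPKM in JQ1+, 24.1 RPKM in flavopiridol and 22.3 RPKM in DMSO. E2f8, an atypical E2F that represses transcription, was at 20.6 RPKM in JQ1+, 19.9 RPKM in flavopiridol and 21.5 RPKM in DMSO. For both of them the counting interval of either ratio to DMSO included 1.

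The chromatin genes lay lower with JQ1+ except Slbp, and 0 of 4 passed 1.5-fold with either drug. Uhrf1, which brings the maintenance DNA methyltransferase to newly copied DNA, was at 163 RPKM in JQ1+, 209.9 RPKM in flavopiridol and 225 RPKM in DMSO, a JQ1+ ratio of 0.728 (interval 0.701 to 0.755). Chaf1b, a subunit of the assembly factor CAF-1 that places new histones behind the fork, was at 21.3 RPKM in JQ1+, 28.8 RPKM in flavopiridol and 28.3 RPKM in DMSO, a JQ1+ ratio of 0.753 (interval 0.684 to 0.829). Its partner Chaf1a was at 112 RPKM in JQ1+, 136 RPKM in flavopiridol and 127 RPKM in DMSO, a smaller JQ1+ difference with a ratio of 0.879 (interval 0.830 to 0.931). In M21, 52.5% of the exon bases of Chaf1a overlap Ubxn6 on the other strand, so part of its level may not be its own. Slbp, which binds the stem-loop of histone mRNAs, was at 84.2 RPKM in JQ1+, 70.5 RPKM in flavopiridol and 71.7 RPKM in DMSO, a JQ1+ ratio of 1.17 (interval 1.11 to 1.24).

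Counting error alone was smaller than many of these differences, because the members are deeply counted. Their median count was 5779 in JQ1+, 5683 in flavopiridol and 6891 in DMSO, where all genes had 954, 1026 and 1178. With JQ1+ the interval lay wholly below 1 for 17 members and wholly above 1 for 5, against 34.1% and 18.1% of all genes. With flavopiridol it lay wholly below 1 for 2 members and above 1 for 21, against 18% and 38.4% of all genes. The deeper counts of the members narrow their intervals, so these shares are not on an equal footing, and how far 2 cultures with the same treatment would differ is unknown.

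The drug libraries were then set side by side, at different doses of compounds of different classes. At 2-fold 0 members were higher and 0 lower in JQ1+, against 2.06% and 6.87% of all genes. In JQ1+ against flavopiridol, 1 member was at least 1.5-fold higher, E2f2, against 5.51% of all genes, and 4 were at least 1.5-fold lower, against 20.9%. The 4 were Tyms, 1.82-fold lower in JQ1+ with a ratio of 0.548 (interval 0.506 to 0.594), Mcm3 with 0.608 (interval 0.588 to 0.629), Pold1 with 0.629 (interval 0.588 to 0.673) and Rrm1 with 0.657 (interval 0.634 to 0.680). The median of all genes was -0.21 in this comparison, and after rescaling by the median of ratios Tyms was the 1 member still past 1.5-fold lower. E2f2 stayed at least 1.5-fold higher on each of the 4 scalings, with a ratio as deposited of 1.63 (interval 1.53 to 1.75). The counting interval lay wholly above 1 for 2 members and below 1 for 23, against 14.1% and 45.9% of all genes. All 6 helicase genes were lower in JQ1+ than in flavopiridol on each scaling, with a median of -0.52 as deposited and -0.29 after the median of ratios. Lower was the usual direction, held by 10338 of 14790 genes as deposited.

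The other genes of the pathway were 94 in 6 lists, all of which passed the minimum level. With JQ1+ 1 of 94 rose at least 1.5-fold and 3 fell, against 6.1% and 12.7% of all genes, with a median of -0.03. After the median of ratios 2 rose, Rb1 and Rpa3, and 1 fell, Cdca7, against 7.63% and 10.8% of all genes. Rb1, the retinoblastoma gene that restrains E2F factors, rose, at 59.3 RPKM in JQ1+, 48.9 RPKM in flavopiridol and 32.3 RPKM in DMSO, a JQ1+ ratio of 1.83 (interval 1.72 to 1.96). Its flavopiridol ratio was 1.51 (interval 1.41 to 1.62), with a log2 change of 0.58 that came just short of the 1.5-fold rule on the pseudocount scale. Cdca7, a partner of the chromatin remodeller Hells, fell with JQ1+, at 43.9 RPKM in JQ1+, 104 RPKM in flavopiridol and 77.9 RPKM in DMSO. Pole2, the second subunit of polymerase epsilon, fell with both drugs, at 118 RPKM in JQ1+, 104 RPKM in flavopiridol and 188 RPKM in DMSO, unlike its catalytic partner Pole. Its fall with JQ1+ was inside 1.5-fold after the median of ratios. Shmt2, the mitochondrial serine hydroxymethyltransferase, was named after its values were seen; it was at 309.9 RPKM in JQ1+, 465 RPKM in flavopiridol and 477 RPKM in DMSO and passed 1.5-fold lower with JQ1+ on the deposited scale alone.

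With flavopiridol 15 of 94 rose and 2 fell (Pole2 and Samhd1, the second named after its values were seen), against 12.3% and 7.56% of all genes. After the median of ratios 8 rose and 2 fell, against 7.99% and 10.2% of all genes, so the rises were then near the background share. The nucleotide list held 6 of the 15, of 14 genes measured, 4 after the median of ratios, and had a median of 0.52. Dut, which removes dUTP, was at 103 RPKM in JQ1+, 173 RPKM in flavopiridol and 94.1 RPKM in DMSO. Shmt1, which supplies the folate that Tyms uses, was at 55.5 RPKM in JQ1+, 117 RPKM in flavopiridol and 64.0 RPKM in DMSO. Nme1, a nucleoside diphosphate kinase, was at 117 RPKM in JQ1+, 175 RPKM in flavopiridol and 97.8 RPKM in DMSO. These 3 rose with flavopiridol on each of the 4 scalings, while the 4 nucleotide genes among the members did not pass 1.5-fold there.

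Outside the nucleotide list the S phase cyclin and kinase list held the most rises with flavopiridol, and each of the other lists held 1 or 2. Orc2, of the origin recognition complex, rose at 62.9 RPKM in JQ1+, 109 RPKM in flavopiridol and 63.5 RPKM in DMSO; Orc6 (0.51) and Orc1 (0.40) stayed inside 1.5-fold. Of the fork genes Rpa3, the small subunit of the single-strand binding protein, had a log2 change of 0.90, Pole3 one of 0.69 and Pole2 one of -0.85. Ccne2 (0.73), Ccne1 (0.72) and Skp2 (0.65) rose among 10 S phase cyclin and kinase genes. As deposited 4 of these 10 rose, against 12.3% of all genes, and after the median of ratios 1 did, against 7.99%. In the chromatin list the histone chaperone gene Asf1a (0.82) rose, and Esco2 (0.52), which acetylates cohesin in S phase, did not pass. Of the E2F and pocket protein genes Tfdp2 (0.60), an E2F partner, passed on the deposited scale and not after the median of ratios, and Mybl2, a late G1 target of E2F, stood at -0.57 with JQ1+ and -0.05 with flavopiridol.

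**Figure D5:**
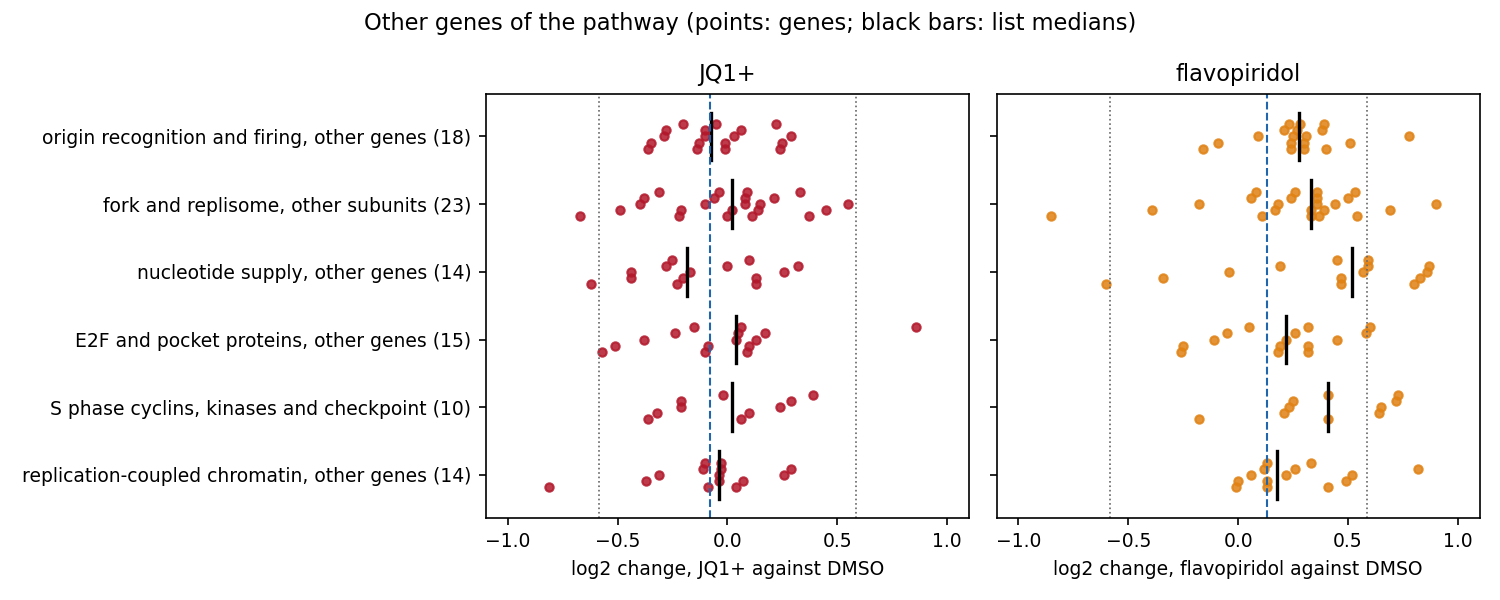
Log2 change of the 94 other pathway genes against DMSO, by list (number of genes in brackets), with JQ1+ on the left and flavopiridol on the right; black bars are list medians, the dashed line is the median of all genes and dotted lines are 1.5-fold. With flavopiridol the nucleotide list has its median at 0.52, to the right of the all-gene median of 0.13, and the point furthest left is Pole2 at -0.85.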

How the data were processed

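RNA was measured in 3 libraries, 1 per treatment, from ribosomal RNA depleted total RNA, per the labels' protocols. Depletion keeps unspliced RNA. Per the file headers, the deposited tables hold a count (whole reads per gene, not normalised) and an RPKM that the authors scaled to gene length and library size. The build is mm9 in the submitters' processing notes. Aligner, counter, annotation and strand use: not given in the sources used here. Between 148 and 164 genes per library had a count of 0 with an RPKM above 0, so counts appear rounded. The total behind RPKM, taken from GENCODE M21 exon lengths by identifier, was 18845360 for JQ1+, 17161780 for flavopiridol and 21046516 for DMSO; 45.7% to 45.9% of genes with at least 500 counts matched it within 0.1%. Counts summed to 2.72, 2.92 and 2.84 times these totals.

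With 1 library per group no count model was fitted. Changes are log2 of RPKM plus a pseudocount of 1; for 94 symbols with several rows the highest was kept. A 3-library mean of 1 RPKM was the minimum level. Ratios carry exact conditional binomial 95% intervals on counts divided by 2.83, covering counting error only. The fold rule and intervals were run on simulated counts that held counting error alone, with changed genes set beyond the fold limit. That run used no divisor, so it covers neither the 2.83 nor the spread between cultures. Named genes are all members and up to 3 genes per pathway list by largest change against DMSO; others are said to be named after their values were seen. Members, lists and rules were chosen with earlier results of these data known. Alternatives were 2 pseudocounts, 3 scalings and 2 filters. Motifs and exon overlaps were read on GRCm38, and the tables were joined to them by symbol or identifier. Python 3.11.15, numpy 2.4.6, pandas 2.3.3 and scipy 1.17.1 were used.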

Additional observations from a re-analysis of the deposited data

How the results depend on the processing

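Over 7 alternatives, 97 of 105 summary values stayed within a set limit of the value as deposited, and 8 moved. For counts of members the limit was 1.5 times. For medians it was the typical half-width of a single member's counting interval, 0.086 to 0.09 log2, which is not the counting error of a median. The counts of members past 1.5-fold against DMSO did not change under any of the 7. The 2 filters (5 RPKM or none) could not change any member value, because every member had at least 16.7 RPKM. Their part of the 97 unchanged values was thus fixed in advance. Rescaling by the median of ratios gave median member changes of -0.04 for JQ1+ against DMSO, 0.04 for flavopiridol against DMSO and -0.06 for JQ1+ against flavopiridol. The last was -0.15 with a shared protein-coding total and -0.19 with CPM from the counts. The 4 members at least 1.5-fold lower in JQ1+ than in flavopiridol became 1 after the median of ratios, 1 with the protein-coding total and 2 with CPM. The share of all genes was 20.9% as deposited and 12%, 14.4% and 13% in those 3 settings. These scalings shift every gene of a library by about one factor, by construction. Among 480 single-gene values, 148 moved beyond the counting interval and 0 with a change past 1.5-fold changed sign. That 0 was all but fixed in advance: rescaling shifted the all-gene median by at most 0.21 log2, and 1.5-fold is 0.58. Smaller changes did change sign. After the median of ratios this held for 5 members in JQ1+ against DMSO, 7 in flavopiridol against DMSO and 6 in JQ1+ against flavopiridol. No paired analysis was possible because each treatment has 1 library, and no library could be left out. Depth limits Gins1 and Gins3 most, with counts of 760 to 1167.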
